A study of Mus musculus with 2 samples.

Results

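The 8 genes described here encode factors that set the identity of deep-layer neurons of the cerebral cortex: Fezf2, Bcl11b, Tbr1, Tle4, Foxp2, Zfpm2, Bcl11a and Nr4a2. They were taken by name from the 43346 mouse genes of the gene tables, and each had exactly 1 entry. The tissue was whole forebrain of B6NCrl mouse embryos of mixed sex at embryonic day 15.5. There was 1 group with 2 biological replicates: replicate 1 was a pool of 78 embryos and replicate 2 a pool of 62. Total RNA over 200 nucleotides, 10 ng per library with added spike-in transcripts, was sequenced, and the expected counts summed to 38720511 and 35103430. No treatment or genotype was contrasted, so the data give levels, ratios between genes, transcript shares and the difference between the pools. With 2 libraries a two-sided exact sign-flip test cannot go below p = 0.5, so values are compared with the SD between the libraries and no p-value is given.

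Deep-layer projection neurons are the earliest excitatory neurons of the cortical plate. Subcerebral neurons of layer 5 send axons to the brainstem and spinal cord under the control of Fezf2 and its downstream effector Bcl11b, while corticothalamic neurons of layer 6 send axons to the thalamus and depend on Tbr1, which represses the subcerebral programme. Tle4, Foxp2 and Zfpm2 mark corticothalamic neurons, Nr4a2 marks the subplate beneath them, and Bcl11a is shared by several classes of cortical neuron. Of genes of cortical excitatory neurons, 6 of 6 reached 1 TPM in both libraries, against 60.6% of protein-coding genes, led by Neurod6 at 393 and 385 TPM. A count at this level cannot test the label of the tissue, since 12 of 12 striatal and 6 of 6 vascular genes reached it too. TPM is a length-corrected relative abundance within a library, and paired values are given for replicate 1 and then replicate 2.

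All 8 genes were detected at 1 TPM or more in both libraries, against 60.6% of the 21474 protein-coding genes measured. All 8 also passed 5 TPM, which 48.8% of protein-coding genes did, and 7 of 8, all but Zfpm2, had a mean of 20 TPM or more, against 31.1%. Their summed level was 473 and 490 TPM. Because the tissue was analysed in bulk, fewer cells of a type and less RNA per cell cannot be told apart in any of these levels.

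The subcerebral factors stood in the upper part of the range. Bcl11b, a zinc finger protein needed for the outgrowth of corticospinal axons (ENSMUSG00000048251.11; chromosome 12, 107910403 to 108003602, minus strand, GENCODE M21 gene span on mm10), was at 96.4 and 89.3 TPM, or 92.9 ± 5.01 (SD, n = 2), from 12573 and 10740 reads. Fezf2, the zinc finger selector gene of subcerebral identity (ENSMUSG00000021743.5; chromosome 14, 12342094 to 12348189, minus strand), was at 70.4 and 73.0 TPM, or 71.7 ± 1.85. Bcl11b was the higher of the pair in both libraries, with a log2 ratio of 0.37 ± 0.11. Bcl11b is also a factor of striatal projection neurons, which the forebrain contains. Of 12 striatal genes 12 were detected, against 60.6% of protein-coding genes, with summed levels of 474 and 458 TPM. The part of these cells in the Bcl11b level was not tested, nor was that of cells outside the cortex in the level of any other member.

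The corticothalamic factors spanned a wide range, from Tbr1 to Zfpm2. Tbr1, a T-box factor (ENSMUSG00000035033.11; chromosome 2, 61802930 to 61814114, plus strand), was at 50.4 and 50.9 TPM, and its 50.7 ± 0.346 was the smallest SD of the 8. Foxp2, a forkhead repressor (ENSMUSG00000029563.12; chromosome 6, 14901349 to 15441977, plus strand), was at 31.9 and 35.7 TPM. Tle4, a Groucho corepressor that binds no DNA itself (ENSMUSG00000024642.12; chromosome 19, 14448150 to 14598051, minus strand), was at 26.8 and 29.2 TPM, from 2795 reads in each library. Zfpm2, a zinc finger cofactor of GATA factors (ENSMUSG00000022306.8; chromosome 15, 40655035 to 41104592, plus strand), was lowest at 9.42 and 8.35 TPM, above 57.0% of protein-coding genes in mean level. Relative to Tbr1, the log2 ratio was -0.59 ± 0.11 for Foxp2, -0.86 ± 0.08 for Tle4 and -2.51 ± 0.13 for Zfpm2.

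Bcl11a and Nr4a2 belong to neither list. Bcl11a, a zinc finger paralog of Bcl11b (ENSMUSG00000000861.11; chromosome 11, 24078056 to 24174123, plus strand), was the highest of the 8 at 169 and 177 TPM, or 172.9 ± 5.81, above 95.9% of protein-coding genes. Its level exceeded that of Bcl11b by 0.90 ± 0.13 on the log2 scale. Nr4a2, an orphan nuclear receptor of the immediate-early NR4A family (ENSMUSG00000026826.9; chromosome 2, 57106830 to 57124003, minus strand), was at 18.4 and 26.3 TPM, and its 22.4 ± 5.61 was the most uneven of the 8 relative to its mean. Nr4a2 also specifies midbrain dopamine neurons. Of 7 markers of those neurons, Slc6a3, Pitx3, En1, Lmx1b and Foxa2 stood at 0.11 TPM or less in both libraries, while Th was at 4.08 and 3.49 TPM and Slc18a2 at 19.5 and 20.1 TPM.

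**Figure D1:**
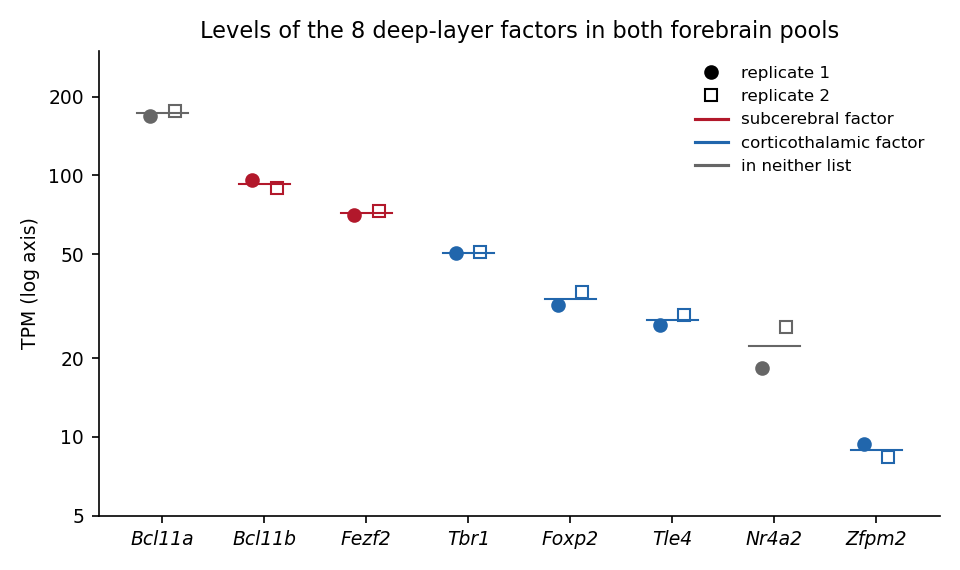
TPM (log axis) of each of the 8 genes in replicate 1 (filled circles) and replicate 2 (open squares), with the mean as a line and colour for the list it belongs to. The order runs from Bcl11a at 169 and 177 TPM to Zfpm2 at 9.42 and 8.35 TPM, and Nr4a2 shows the widest gap between libraries.

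Neighbours in the order of levels did not overlap between the libraries. The log2 ratios of neighbouring genes were 0.50 ± 0.03 for Fezf2 over Tbr1, 0.27 ± 0.03 for Foxp2 over Tle4, 0.35 ± 0.28 for Tle4 over Nr4a2 and 1.31 ± 0.49 for Nr4a2 over Zfpm2. Both steps that involve Nr4a2 had the widest spread of the 7, and Tle4 over Nr4a2 was 0.54 in replicate 1 and 0.15 in replicate 2. The place of Fezf2 depended on length correction: in reads scaled to library size without it, Tbr1 stood above Fezf2, with a log2 ratio of Fezf2 to Tbr1 of -0.28. With protein-coding transcripts only, Foxp2 was at 24.5 and 28.9 TPM, below Tle4 in both libraries.

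The median of the 2 subcerebral factors exceeded that of the 4 corticothalamic factors. In mean TPM the list medians were 81.6 and 30.8, a 2.65-fold difference. On the scale of log2(TPM + 0.1) the difference was 1.40 ± 0.12, with 1.49 in replicate 1 and 1.32 in replicate 2, larger than the spread between the libraries. In TPM, both subcerebral genes were above all 4 corticothalamic genes in both libraries. Without length correction this did not hold: Tbr1 was above Fezf2 in both libraries and Foxp2 was slightly above it in replicate 2. The difference of medians moved with the makeup of the lists, to 1.27 with Bcl11a counted as corticothalamic and 1.67 as a mean over members. It was 1.06 without length correction.

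Set against each other and against relatives, the members differed by more than the spread in all 16 gene pairs reported. Tbr1 exceeded Eomes, the T-box factor of the intermediate progenitors that precede these neurons, by 0.98 ± 0.17 on the log2 scale. Tbr1 stood below Sox5, a regulator of deep-layer timing at 181 and 197 TPM, with a ratio of -1.90 ± 0.08. The size of this gap depended on the estimate: it was -0.97 without length correction and -0.62 with protein-coding transcripts only. In the latter Sox5 was at 74.59 and 77.25 TPM. Within gene families, Foxp2 was below Foxp1 (-1.38 ± 0.04), while Fezf2 exceeded Fezf1 (3.13 ± 0.66), Zfpm2 exceeded Zfpm1 (3.70 ± 0.32) and Nr4a2 exceeded Nr4a1 (2.87 ± 0.20). Zfpm1 was below 1 TPM, at 0.62 and 0.75 TPM from 48 and 40 reads. The ratio of Zfpm2 to Zfpm1 was 2.55 with 1 TPM added to each gene and 4.47 without length correction. Tle4 was close to its paralog Tle1, at -0.22 ± 0.14, and this ratio changed sign to 0.36 without length correction and to 0.05 with protein-coding transcripts only.

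**Figure D2:**
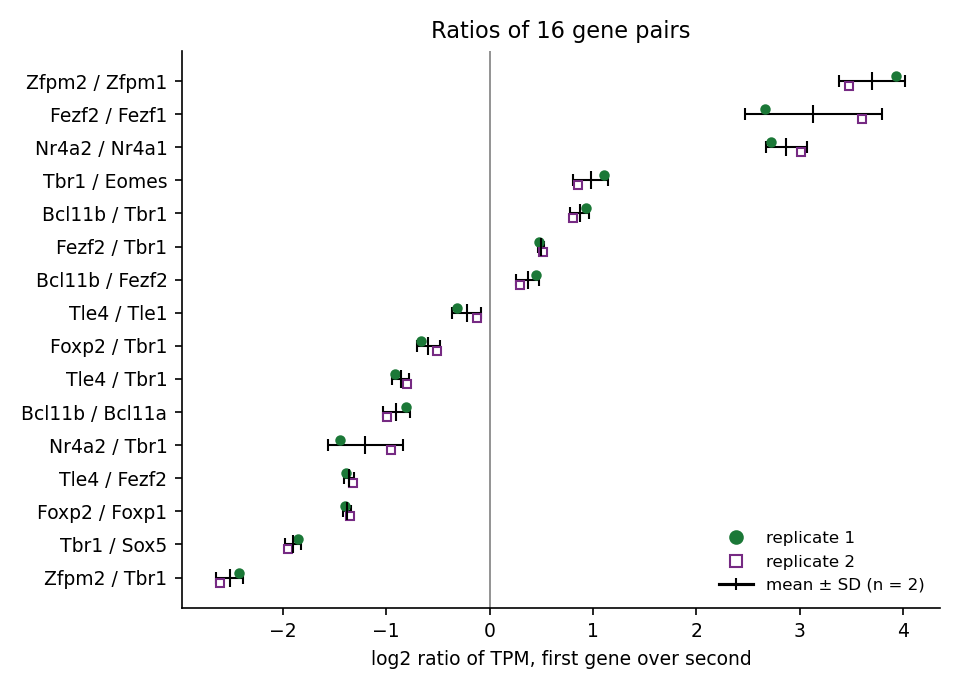
Log2 ratio of TPM, first gene over second, for 16 gene pairs in replicate 1 (circles) and replicate 2 (squares), with mean ± SD (n = 2). Ratios run from -2.51 for Zfpm2 to Tbr1 to 3.70 for Zfpm2 to Zfpm1, and Fezf2 to Fezf1 has the widest spread.

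Other genes of both neuron classes, of the subplate and of callosal neurons were mostly detected, against 60.6% of all protein-coding genes. Striatal, vascular and cortical progenitor genes all passed the same level, so these counts do not single out a neuron class. Of 12 other subcerebral genes, 12 reached 1 TPM in both libraries, with a median of 33.2 and 32.7 TPM. The calcium-signalling modulator Pcp4 was at 116 and 139 TPM and the LIM-only factor Lmo4 at 118 and 115 TPM, while the formin Diaph3 was lowest at 3.51 and 2.97 TPM. Of 8 other corticothalamic genes, 8 were detected, with a median of 17.3 and 16.4 TPM. Rprm was at 214 and 202 TPM, and the neurotensin receptor Ntsr1, a marker of mature corticothalamic neurons, was lowest in mean level at 6.60 and 5.46 TPM. Subplate genes were detected for 7 of 8, Nr4a2 included: Nxph4 was at 32.3 and 33.3 TPM, and Cplx3 was at 0.38 and 0.02 TPM. The 7 callosal and upper-layer factors reported were all detected, from Cux1 at 120 and 118 TPM to Rorb at 16.7 and 13.2 TPM.

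Partners of the members were unevenly present, beside the 60.6% of protein-coding genes that reached 1 TPM in both libraries. Of the NuRD subunits and the corepressor Ski, which act on Bcl11b in callosal neurons, 6 of 6 were detected. Hdac2 at 369 and 353 TPM and Rbbp4 at 358 and 356 TPM were highest, and Ski was lowest at 11.9 TPM in both. With protein-coding transcripts only, Rbbp4 was at 134 and 120 TPM, beside Mta2 at 133 and 132 TPM. Ski was then at 1.52 and 1.96 TPM. Of 6 Groucho family genes all were detected, and the short family member Aes, at 464 and 488 TPM, stood far above Tle4. Beside Zfpm2, of the 6 GATA genes with which FOG proteins pair, Gata2 was at 1.32 and 1.14 TPM, Gata3 at 1.90 and 0.91 TPM, and Gata1, Gata4, Gata5 and Gata6 at 0.15 TPM or less. Known targets and a partner of Tbr1, the members Bcl11b and Fezf2 included, were all detected. Among them were Reln at 38.0 and 36.1 TPM, Auts2 at 69.0 and 76.1 TPM and Cask, the binding partner of Tbr1, at 38.9 and 36.1 TPM. With protein-coding transcripts only, Reln was at 15.35 and 16.12 TPM and Auts2 at 8.71 and 11.1 TPM, while Cask was at 38.4 and 35.8 TPM.

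The 8 genes had 42 transcripts in the deposited tables. Fezf2 and Zfpm2 had 1 each, and Tbr1-201 held 96.7 and 97.0% of the TPM of Tbr1. Transcript names, coding lengths and coordinates are those of GENCODE M21 on mm10, while the reads were assigned to M4 models. The remaining genes divided their reads among transcripts with different coding sequences or start sites, and the junction sequences below show where they part.

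Bcl11a was divided between long and short coding forms. Bcl11a-204, with 191 codons and a start of its own at 24080670, held 48.4 and 48.3% of TPM. Bcl11a-202, with 835 codons, held 30.6 and 29.5%, and Bcl11a-201, with 773 codons, held 10.6 and 11.6%. Bcl11a-204 is 1505 bases long and Bcl11a-202 is 5989, so in reads the order was the reverse: 20.3 and 20.5% for Bcl11a-204 against 53.6 and 52.3% for Bcl11a-202. The forms share coding sequence up to chromosome 11, position 24163288 (plus strand), after which Bcl11a-202 reads on and Bcl11a-204 splices to position 24172699. In the lines below, capitals mark the 30 coding bases after the shared 30.
Bcl11a-202: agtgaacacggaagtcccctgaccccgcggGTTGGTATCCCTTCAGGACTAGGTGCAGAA
Bcl11a-204: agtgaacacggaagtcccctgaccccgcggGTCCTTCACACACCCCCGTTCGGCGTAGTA
A pair of antisense genes overlaps Bcl11a, 4930538E20Rik at 1.53 and 1.64 TPM and Gm12064 at 0.20 and 0.21 TPM, and no source used here gives whether counting used strand.

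Bcl11b was divided between transcripts with and without a 216-base exon. Bcl11b-201, with 884 codons, includes it and held 53.5 and 53.8% of TPM, while Bcl11b-203, with 812 codons, lacks it and held 44.3 and 45.1%. The shares differed by less than 1 percentage point between the pools. In reads the split was 76.9 and 77.0% against 22.2 and 22.5%, since Bcl11b-201 is 8111 bases long and Bcl11b-203 is 2888. Their models also differ at the 3′ end, so these shares do not measure the use of the exon alone. The shared exon ends at chromosome 12, position 107989465 (minus strand), and the extra exon covers 107965887 down to 107965672. Capitals mark the first 30 bases after the shared exon.
Bcl11b-201: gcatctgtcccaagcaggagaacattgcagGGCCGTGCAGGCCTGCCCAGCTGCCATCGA
Bcl11b-203: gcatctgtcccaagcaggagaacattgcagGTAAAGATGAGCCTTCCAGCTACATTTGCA

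Tle4 had a pair of transcripts of equal coding length, 773 codons, that exchange a 17-base exon. Tle4-201 held 79.8 and 77.2% of TPM and Tle4-202 held 20.2 and 22.8%. The exons follow chromosome 19, position 14517772 (minus strand), at 14516375 to 14516359 in Tle4-201 and at 14491799 to 14491783 in Tle4-202. Capitals mark the exchanged exon, in which 8 of 17 bases are equal, and the flanks on both sides are identical.
Tle4-201: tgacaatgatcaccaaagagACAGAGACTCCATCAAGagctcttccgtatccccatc
Tle4-202: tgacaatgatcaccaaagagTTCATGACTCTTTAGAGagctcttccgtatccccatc

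Foxp2 was the most divided, with 19 transcripts of which 6 had no reads in either library. Foxp2-207, with 714 codons, held 29.9 and 34.9% of TPM, and Foxp2-201, with the same coding length, held 23.2 and 21.7%. Together the 714-codon transcripts held 53.1 and 56.6% of TPM and 75.1 and 78.0% of reads. Start sites within 2000 bases of each other were joined, and 2 of these groups held most of the signal: the upstream start at 14901349 had 46.9 and 50.3% of TPM and the start at 15184647 had 44.5 and 45.3%. Foxp2-203, with 83 codons, held 16.7 and 13.3% of TPM. It runs on from chromosome 6, position 15197128 (plus strand), into sequence that is intron in Foxp2-207, whose next exon begins at 15286681. The retained-intron transcript Foxp2-213 held 11.3 and 8.76%, and transcripts of non-coding types together held 19.8 and 16.2%. Whether these shares come from unspliced RNA was not tested. Capitals mark the 30 bases after the shared exon.
Foxp2-207: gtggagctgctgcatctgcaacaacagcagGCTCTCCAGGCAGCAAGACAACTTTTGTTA
Foxp2-203: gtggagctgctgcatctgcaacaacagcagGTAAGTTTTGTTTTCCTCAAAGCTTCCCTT

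**Figure D3:**
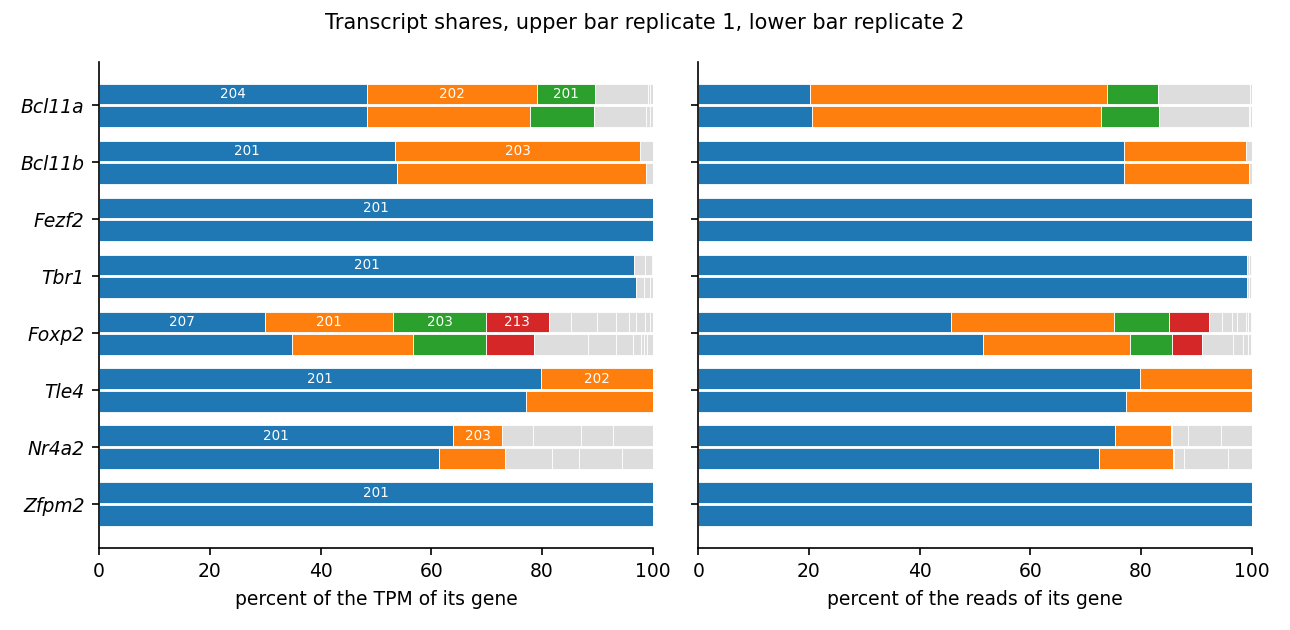
Share of each transcript in the TPM (left) and in the reads (right) of its gene, in percent, for replicate 1 (upper bar) and replicate 2 (lower bar). Colours and numbers mark transcripts at a mean of 10% or more of TPM and grey marks the rest. Bcl11a-204 has 48.4% of TPM and 20.3% of reads in replicate 1.

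Nr4a2 used a proximal and an upstream start. Nr4a2-201, with 598 codons, held 63.9 and 61.4% of TPM, and Nr4a2-203, which has the same coding length and begins at the upstream start, held 8.98 and 11.9%. Transcripts from the proximal start at 57115038 were at 15.7 and 21.2 TPM, and those from the upstream start at 57124003 at 2.70 and 5.15 TPM. The upstream share was 14.7 and 19.6%. Both starts were higher in replicate 2. These shares are estimates on few reads: Nr4a2-203 had 128.5 and 223.4. Nr4a2-204, a 182-base transcript counted with the proximal start, gave 1.03 and 2.24 TPM from 2 and 4 reads.

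Promoter sequence from RefSeq (GRCm38.p6) was held for 6 of the 8 genes in 7 windows, of which the 250 bases before the RefSeq start were used. Motifs were searched in these as letters on both strands, and a match is a description and not a binding site. GGGCGG, the GC box bound by Sp factors, was in 6 of 7 windows and in 32.7% of the 32851 windows of the table. Not all of these lie before a measured start. A Tle4 window, 14597164 to 14597463, lies inside the gene, downstream of the start at 14598051. The Fezf2 and Bcl11b windows take in the starts of Fezf2-201 at 12345959 and Bcl11b-201 at 108003602. TGACG, the core of the cAMP response element, was in 17.8% of all windows and, among the members, in that of Nr4a2, where it occurred 4 times. TAATTA, a homeodomain core found in 4.84% of all windows, and the E-box CAGGTG, found in 17.2%, were each in the window of Tbr1. The Nr4a2 window, at chr2:57124004-57124253 on the minus strand, lies before the upstream start described above and is 80.0% G and C, and capitals mark TGACG or its reverse complement.
Nr4a2: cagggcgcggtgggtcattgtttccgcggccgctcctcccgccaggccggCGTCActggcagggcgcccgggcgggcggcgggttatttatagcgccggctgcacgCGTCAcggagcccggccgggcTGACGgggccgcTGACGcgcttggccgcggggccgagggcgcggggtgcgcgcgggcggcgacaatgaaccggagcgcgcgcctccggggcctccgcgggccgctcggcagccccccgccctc
The Bcl11a window runs past the start of Bcl11a-204, the short form and the single transcript with the largest share of TPM, to a RefSeq start at 24080695. It lies inside the gene, downstream of the start at 24078056 used by the long forms. Transcripts from that upstream start held 51.2 and 51.1% of TPM and 79.7 and 79.4% of reads. Besides the long forms these include Bcl11a-203, with 243 codons, and the retained-intron transcript Bcl11a-205, at 9.61 and 9.39% of TPM. No window before that start was held. The window is therefore not that of the long forms. The window is printed only up to the base before the Bcl11a-204 start, as 225 bases at chr11:24080445-24080669 on the plus strand. Capitals mark GGGCGG or its reverse complement, which occurred 2 times in them.
Bcl11a: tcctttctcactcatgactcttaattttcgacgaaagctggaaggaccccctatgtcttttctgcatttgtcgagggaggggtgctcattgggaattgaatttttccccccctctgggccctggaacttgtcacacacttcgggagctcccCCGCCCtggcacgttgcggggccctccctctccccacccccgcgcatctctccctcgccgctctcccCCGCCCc

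Between the pools, 7 of the 8 genes differed by less than 25% of the lower value and Nr4a2 by more. After TMM scaling of the reads, the log2 ratio of replicate 1 to replicate 2 for Nr4a2 was -0.54, with an exact 95% interval for counting error of -0.64 to -0.43, or 1.45-fold higher in replicate 2. Of all 19165 genes with 10 or more reads, 21.7% differed by over 25% in either direction. Among 7422 protein-coding genes at least as abundant as Zfpm2 it was 0.916%, a background chosen after the data were seen. Nr4a2 was further from 0 than 99.7% of those genes, and Foxp2, at -0.23 (-0.30 to -0.16), than 97.5%. Tle4 was at -0.14, Bcl11a and Fezf2 at -0.07 and Tbr1 at -0.04. Bcl11b at 0.09 and Zfpm2 at 0.16 were higher in replicate 1, but both turned negative, at -0.11 and -0.04, when the libraries were scaled by spike-ins, which moved the median of all genes by -0.20. With that scaling 3 of the 8 genes, Nr4a2, Foxp2 and Tle4, differed by over 25%. The shift applies to every gene, and the share of all genes past 25% with it was not computed. This count therefore has no background beside it.

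Genes of other groups also differed between the pools. All 3 NR4A genes were higher in replicate 2 in TPM, with Nr4a3 at 5.84 and 6.66 and Nr4a1 at 2.79 and 3.27. Of 6 genes of thalamic neurons, 5 differed by over 25% and all 6 were higher in replicate 2, with a median log2 ratio of -0.41, a summed level of 121 and 162 TPM, and Tcf7l2 at 78.0 and 107 TPM. Genes of cortical progenitors were higher in replicate 2 for 5 of 6 in TPM, with a median log2 ratio of -0.25 and 2 past 25%. Striatal genes had a median of 0.16, higher in replicate 1, with 2 of 12 past 25% in that direction and 1 in the other. Of the heart genes, Tnnt2 was at 0.62 and 4.75 TPM, Myh6 at 0.07 and 0.27 TPM and Nkx2-5 at 0 and 0.49 TPM. The 8 subplate genes, Nr4a2 included, had a median of -0.01: besides Nr4a2, Cplx3 alone was past 25%, in the other direction and on 24 and 1 reads, while Tmem163 was at -0.23 and Moxd1 at 0.17. The median log2 ratio was 0.01 over the 12 other subcerebral genes and 0.05 over the 8 other corticothalamic genes. The part of any of these groups of cells in the Nr4a2 difference was not tested.

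**Figure D4:**
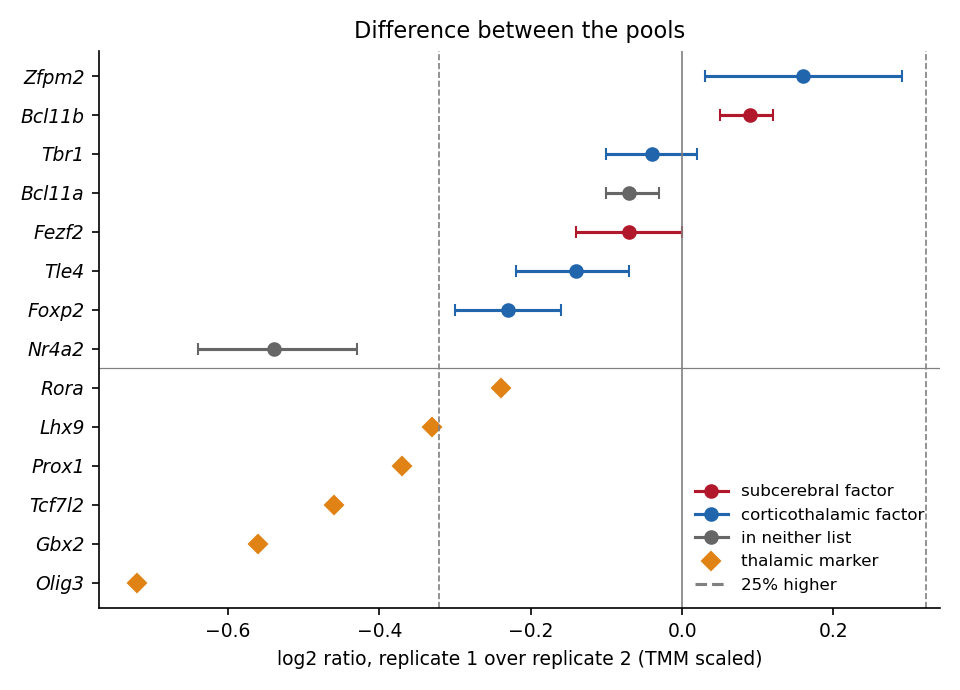
Log2 ratio of replicate 1 to replicate 2 after TMM scaling for the 8 genes, with exact 95% intervals for counting error, and for 6 thalamic markers without intervals. Dashed lines mark a difference of 25%. With this scaling Nr4a2 at -0.54 is the only one of the 8 past the line, and 5 of the 6 thalamic markers are past it too.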

How the data were processed

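Total RNA of 2 pools of embryonic forebrain was analysed from gene and transcript tables deposited for each library. Per the notes deposited with the files, values derive from transcriptome alignments to mm10 with GENCODE M4; aligner, quantifier, versions and strand are not given in the sources. The deposited expected counts are the authors' estimated reads, which need not be whole. The deposited TPM values scale them by effective length over all entries, with spike-ins. FPKM, as deposited, divides by length in kilobases and by library size. The deposited percent values give a transcript's share of its gene. The deposited intervals of TPM have no stated level and are not printed.

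Identifiers without version gave symbols for 98.0% of genes. Groups came from the labels, which call the replicates biological. The members, gene lists and pairs were chosen with earlier results of these data known; 1 listed gene and its pair are not reported here. Named genes were every member, the highest and lowest members of the lists, the genes of the pairs, and transcripts at a mean share of 10% or more; a few more list genes were named after their values were seen. Differences between list medians used log2(TPM + 0.1). For the pools, rounded expected counts of genes with 10 or more summed reads were scaled by TMM (edgeR 4.0.16, R 4.3.3); DESeq2 1.42.0 size factors, spike-in scaling, unscaled TPM, no filter, posterior means, other pseudocounts, CPM and single libraries were alternatives. The scaling was tested on simulated data. Tables were handled in Python 3.11.15 with pandas 2.3.3 and numpy 2.4.6. Intervals cover counting error only.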

Additional observations from a re-analysis of the deposited data

How the results depend on the processing

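Of 222 values recomputed under another setting, 170 stayed within the spread between the libraries (pool ratios: within their counting interval; counts: within 1.5 times), which values of a single library do by construction, 49 moved further and 3 gene pair ratios changed sign. The subcerebral minus corticothalamic difference of 1.40 was 1.06 without length correction, 1.57 with protein-coding transcripts only, 1.67 as a mean over members, 1.59 with Bcl11a counted as subcerebral, 1.27 with Bcl11a counted as corticothalamic and 1.54 with Nr4a2 counted as corticothalamic; it was 1.32 to 1.49 with 1 library left out. Its direction held under every alternative run. The pair ratios that changed sign were Fezf2 to Tbr1 (-0.28 without length correction) and Tle4 to Tle1 (0.36 without length correction, 0.05 with protein-coding transcripts only). Scaling by spike-ins moved the median pool ratio of all genes by -0.20. It put 3 of the 8 genes past a 25% difference in place of 1, adding Foxp2 and Tle4. The share of all genes past 25% with that scaling was not computed. Among the values that moved, it turned the pool ratios of Bcl11b (0.09 to -0.11) and Zfpm2 (0.16 to -0.04). The causes were not tested. No paired analysis was possible because there was 1 group. Zfpm2 had the fewest reads of the 8, 1075 and 875, and with 2 libraries each SD is itself imprecise.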
